A study of Homo sapiens with 3 samples.

Results

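A set of 10 genes of blood vessel growth and endothelial adhesion was followed on the arrays of the human osteosarcoma line MNNG/HOS: the growth factors VEGFA, VEGFB and VEGFC, the receptors KDR and FLT1, the co-receptors NRP1 and NRP2, the ligand ANGPT1, the secreted protein gene ANGPTL4 and the adhesion molecule gene PECAM1. They were matched by current symbol or older alias, and all 10 were found among 17185 named genes, on 14 probe sets. NRP1 and NRP2 had 3 probe sets each and the other 8 genes 1 each. Probe sets of one gene were averaged on the log2 scale, and intensities below are that average turned back to the linear scale. Of the 10 genes, 7 reached on at least 1 array an intensity of 685, the median over all genes and arrays, here called the median level. PECAM1 did so on the day 3 array alone, and KDR, FLT1 and ANGPT1 on none.

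MNNG/HOS is an established cell line, grown here without serum throughout. In all 3 groups the spheres that had formed on their own over the first 5 days were removed, and the cells that still adhered were used. The untreated group was kept for 5 more days with no added factor, the day 3 group was given the cytokine TGF-beta1 for 3 days at 4 ng/mL, and the last group was given 4 ng/mL for 5 days and only its newly floating spheres were taken. Whether adherent cells, floating cells or both were taken at day 3 is not stated in the labels. Each group was 1 array of total RNA from 1 culture of 1 line, with no replicates, so no difference below has a replicate check, no p-value was computed, and the number of arrays limits the precision of every value. Day 3 differs from untreated cells in treatment, in days in culture and possibly in the fraction of cells collected. The spheres share 5 days in culture with the untreated cells and differ from them in treatment and in the fraction collected. From day 3 the spheres differ in days of treatment and culture and possibly in the fraction, at the same dose. Within a comparison these cannot be told apart. In bulk RNA fewer cells of a type and less RNA per cell cannot be told apart either. A gene was counted in a comparison where its values on the 2 arrays were at least 2-fold apart, and smaller differences are given as values only.

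VEGF proteins are secreted dimers that bind receptor tyrosine kinases, chiefly on endothelial cells: VEGFA binds FLT1 and KDR, VEGFB binds FLT1, and VEGFC binds FLT4 and KDR. Neuropilins bind VEGFs and class 3 semaphorins and pass no kinase signal of their own. Angiopoietin 1 activates the receptor TEK and steadies vessels, and PECAM1 joins endothelial cells to each other and is also found on platelets and leukocytes. In osteosarcoma, a bone tumour, the tumour cells themselves can secrete VEGFA.

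The 10 genes did not move as a block. At day 3 of TGF-beta1, 3 of 10 were at least 2-fold higher than in untreated cells (PECAM1, ANGPTL4 and ANGPT1), where 5.77% of all named genes were, and 1 of 10 (KDR) was at least 2-fold lower, where 5.26% were. In the day 5 spheres 1 of 10 (PECAM1) was at least 2-fold higher than in untreated cells, beside 4.90% of all genes, and 2 of 10 (KDR and ANGPT1) were lower, beside 5.00%. Between the 2 treated arrays, 4 of 10 (PECAM1, ANGPT1, ANGPTL4 and FLT1) were at least 2-fold lower in the spheres than at day 3, beside 4.72%, and 0 of 10 were higher, beside 5.78%. The 3 comparisons share arrays, so a high day 3 value enters the first and the last of them.

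Read by array, 6 of the 10 genes had their highest value at day 3, 2 in untreated cells and 2 in the spheres. VEGFB, FLT1, ANGPT1 and ANGPTL4 were highest at day 3 and lowest in the spheres. The median log2 difference of the 10 genes was 0.58 at day 3 against untreated cells, -0.44 in the spheres against untreated cells and -0.54 in the spheres against day 3, while the medians of all genes were -0.01, 0.01 and -0.04. The genes were chosen with results of these arrays known, so these medians describe the 10 genes only.

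**Figure D1:**
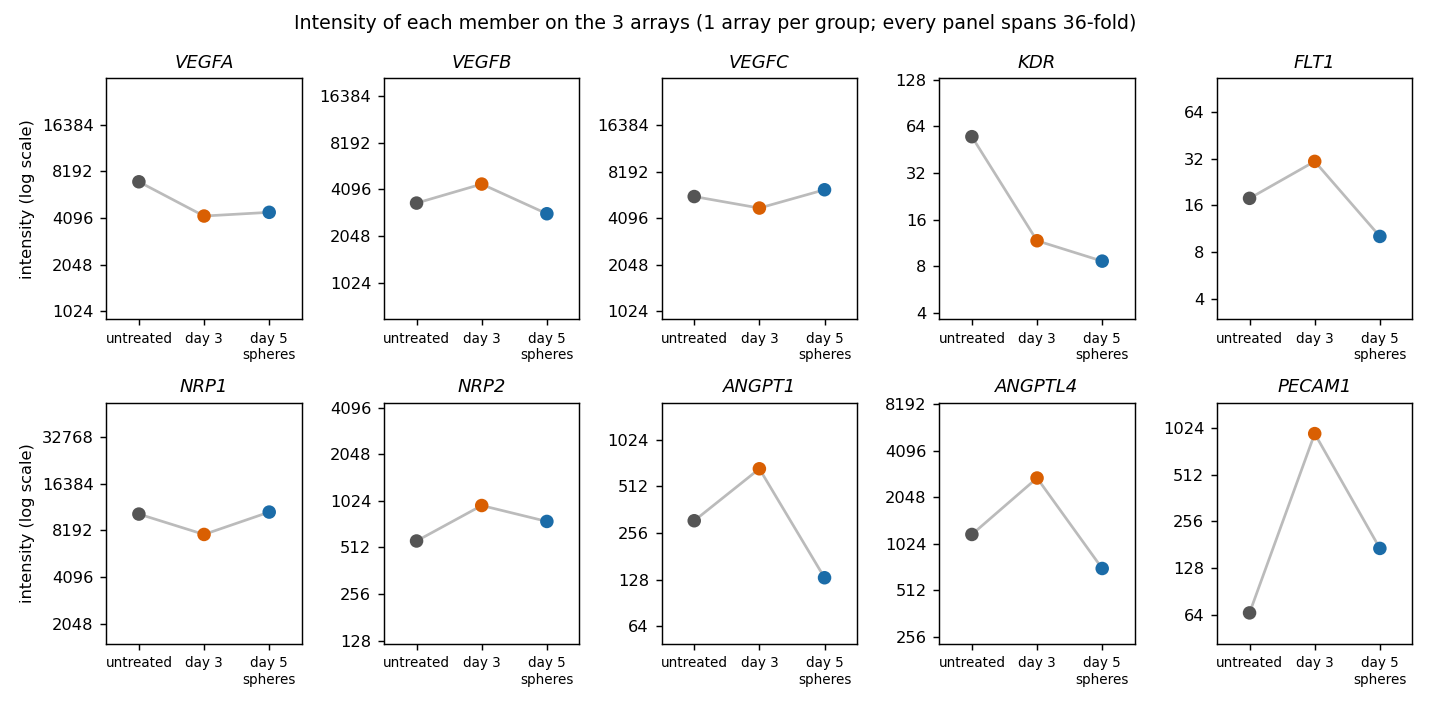
Intensity of each of the 10 genes on the untreated, day 3 and day 5 sphere arrays, 1 point per array, on log axes that all span the same ratio. PECAM1, ANGPTL4 and ANGPT1 peak at day 3, KDR is highest in untreated cells, and the 3 VEGF ligands and NRP1 stay within 1.66-fold.

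Some measure of technical error came from genes that the array reads more than once. Among 771 genes past the median level with more than 1 probe set, the log2 differences of a gene's own probe sets lay 0.17 apart at the median for day 3 against untreated cells, and 90% of these genes had a spread of at most 0.67. For the spheres the corresponding values were 0.17 and 0.72 when set against untreated cells, and 0.16 and 0.91 when set against day 3. These spreads include real differences between transcripts and leave out the variation between cultures, which was not measured.

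None of the 3 VEGF ligands reached 2-fold in any of the 3 comparisons. VEGFA, the main driver of new vessel growth and a gene induced by low oxygen, read 7029 in untreated cells, 4224 at day 3 and 4463 in the spheres. It was therefore highest in untreated cells, 1.66-fold above day 3 and 1.57-fold above the spheres, both short of 2-fold, and the 2 treated arrays differed by 0.08 in log2. VEGFB, which binds FLT1 and is known for roles in muscle and heart lipid handling, had intensities of 3346, 4439 and 2855, in the same order of arrays. Its largest gap was 1.55-fold, between day 3 and the spheres. VEGFC, best known for the growth of lymphatic vessels, had intensities of 5652, 4763 and 6253, and its largest gap of 1.31-fold lay between the spheres and day 3. The highest array was thus a different one for each of the 3 ligands. The largest VEGFB and VEGFC differences, of 0.64 and 0.39 in log2, both lay between the spheres and day 3. They exceeded the median probe set spread of 0.16 for that pair of arrays. Both were below 0.91, the value that 90% of genes past the median level with several probe sets did not exceed. The VEGFA difference at day 3 against untreated cells, at -0.73, lay just beyond the corresponding 0.67.

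The other ligands and receptor of the family also stayed under 2-fold. PGF, placental growth factor, which binds FLT1, had intensities of 3002, 4092 and 2338, an order of arrays shared with VEGFB. VEGFD, the close relative of VEGFC, stayed between 28.9 and 37.8, and FLT4, their receptor, between 316 and 379. Genes that cut VEGFC into its active form did differ. FURIN, a proprotein convertase, was 2.81-fold higher at day 3 than untreated, at 2176 against 775, while CCBE1, the secreted cofactor of VEGFC cleavage, was 3.36-fold lower, at 17.6 against 59.1, both in the lowest quartile of gene values (under 63.4). PCSK5, another convertase, was 2.58-fold higher in the spheres than at day 3. Of the 5 VEGFC processing genes, 1 was at least 2-fold higher and 2 were lower at day 3 than untreated, beside 5.77% and 5.26% of all genes. CCBE1 alone was still called lower in the spheres against untreated cells, beside 5.00%.

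**Figure D2:**
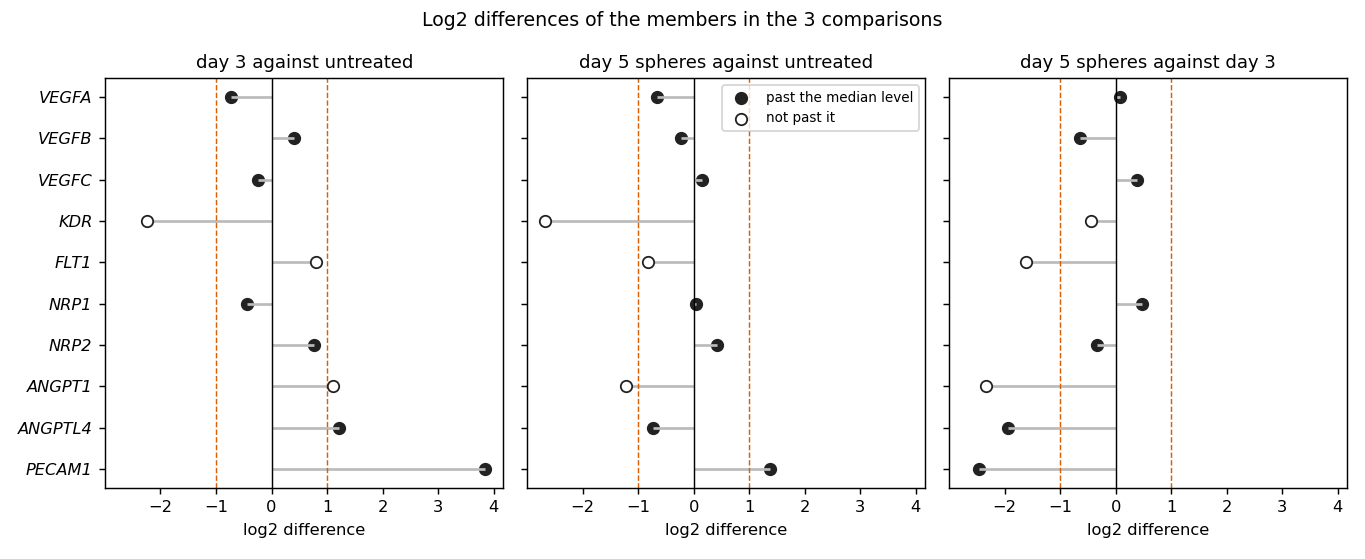
Log2 difference of each of the 10 genes in the 3 comparisons, with dashed lines at 2-fold and open points for KDR, FLT1 and ANGPT1, which did not reach the median level on any array. PECAM1 lies at 3.85, 1.38 and -2.46, and KDR at -2.23, -2.67 and -0.44.

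Both member receptors, KDR and FLT1, lay in the lowest quartile of gene values on all 3 arrays. KDR, the main signalling receptor of VEGFA in endothelium, read 55.0 in untreated cells, 11.7 at day 3 and 8.64 in the spheres. That put it at percentiles 24.0, 4.56 and 1.54 of all genes on the 3 arrays. KDR was 4.70-fold lower at day 3 and 6.37-fold lower in the spheres than in untreated cells, the 97th and 62nd lowest of 17185 differences. Since no detection calls were used, it is not known whether the treated values exceed background, and with 64 added to every intensity the log2 differences were -0.65 and -0.71 in place of -2.23 and -2.67, under 2-fold. Among genes whose mean value lay in the lowest quartile, 9.47% were past 2-fold in either direction at day 3 against untreated cells and 8.01% in the spheres against untreated cells.

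The promoter window of KDR is shown because KDR was the one member at least 2-fold lower on both treated arrays, and to compare its letters with the window of ANGPTL4 given further on. The RefSeq window (GRCh38.p14, chr4:55125546-55125845, minus strand, 250 bases before to 50 after the gene start) reads 5′ to 3′, with matches to the GC box GGGCGG on either strand in capitals:
KDR: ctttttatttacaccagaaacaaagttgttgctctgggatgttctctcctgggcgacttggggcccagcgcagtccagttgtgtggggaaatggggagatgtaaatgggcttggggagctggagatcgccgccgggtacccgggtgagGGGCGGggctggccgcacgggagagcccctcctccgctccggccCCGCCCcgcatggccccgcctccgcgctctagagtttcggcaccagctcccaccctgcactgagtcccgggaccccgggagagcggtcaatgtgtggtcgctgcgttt
The window held 2 GC boxes, a motif present in 45.0% of 35116 promoter windows of the same length, and no match to the hypoxia response element core ACGTG, the SMAD box core CAGAC or the TATA box core TATAAA.

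FLT1, the high-affinity receptor that also traps VEGFA as a soluble form, stayed between intensities of 10.1 and 30.8. Its values were 17.8 in untreated cells, 30.8 at day 3 and 10.1 in the spheres, all in the lowest quartile of gene values. FLT1 was 3.05-fold lower in the spheres than at day 3, which 64 added to every intensity turned into a log2 difference of -0.36 from -1.61 (-0.84 with 16 added). Between those arrays 6.24% of genes with a mean in the lowest quartile were past 2-fold in either direction.

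Neuropilins were measured by 3 probe sets each, and those of one gene did not read alike. NRP1, the co-receptor that binds VEGFA and the repellent semaphorin SEMA3A, read, over all its probe sets, 10431 in untreated cells, 7705 at day 3 and 10747 in the spheres, gaps of at most 1.39-fold. The probe set of transcript NM_003873, the full-length membrane form, read 13854, 13011 and 11947. The probe set of NM_001024628 read 8029, 5462 and 9284, and that of NM_001024629 read 10204, 6438 and 11193; both transcripts are known as shorter, secreted forms. These last 2 probe sets were lowest at day 3, by 1.47-fold and 1.59-fold against untreated cells, where the membrane form's probe set differed by 1.06-fold. In the spheres against day 3 the log2 differences were 0.77 and 0.80 for the secreted forms' probe sets and -0.12 for the membrane form's. That spread of 0.92 exceeded the spread of 89.0% of 1349 genes with several probe sets. A spread tends to grow with the number of probe sets, which was not matched, and the 1349 genes include some under the median level.

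NRP2, the co-receptor of VEGFC and of SEMA3F, had gene intensities of 564, 956 and 754, with day 3 1.69-fold above untreated cells. That mean hid a wide split. The probe set of NM_003872 read 455 in untreated cells, 1458 at day 3 and 693 in the spheres, that of NM_018534 read 293, 419 and 318, and that of NM_201264 read 1347, 1430 and 1946. At day 3 against untreated cells the first was 3.21-fold higher and the last 1.06-fold. Their log2 spread of 1.60 was wider than in 98.4% of the 1349 genes, again with the number of probe sets not matched. In the spheres against day 3 the first was 2.10-fold lower and the last 1.36-fold higher. At day 3 against untreated cells NRP2 was under 2-fold with the mean of its probe sets (log2 0.76), with the brightest probe set (0.09) and with the median of the probe sets' own differences (0.52). The median of the probe sets' levels on each array gave 1.65, but that value sets NM_201264 at day 3 against NM_003872 in untreated cells and so is no difference of one probe set. Where the probes lie on these transcripts is not given in the sources used here, so a probe set may catch more than the transcript it is named for.

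**Figure D3:**
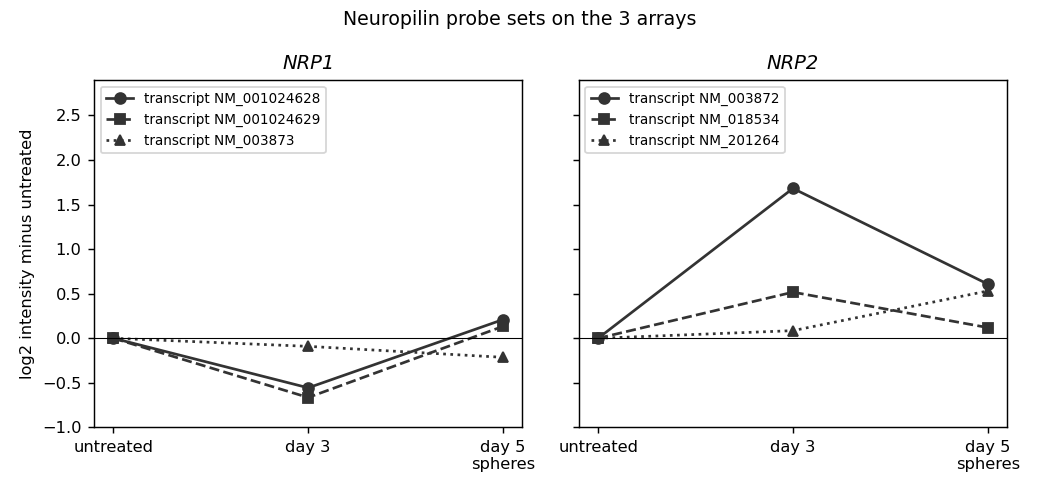
Log2 intensity of the 3 probe sets of NRP1 and of NRP2 on each array, minus the untreated value of the same probe set. For NRP1, 2 probe sets dip at day 3 while NM_003873 stays nearly level, and for NRP2 the probe set of NM_003872 is 1.68 above its untreated value at day 3 while NM_201264 is at 0.09.

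The semaphorins and plexins that share the neuropilins differed in both directions at day 3, with 8 of 12 above their untreated value and 2 at least 2-fold below it. SEMA3A, the secreted repellent that binds NRP1, was 2.12-fold lower at day 3 than untreated (1234 against 2619) and 2.38-fold higher in the spheres than at day 3 (2934). It was thus lowest at day 3, as was NRP1 by the mean of its probe sets. The probe set of NRP1's membrane form was instead lowest in the spheres. PLXNA2, a signalling partner of the neuropilins, was 4.83-fold lower at day 3 and 4.11-fold lower in the spheres than in untreated cells, from an untreated intensity of 390, without reaching the median level on any array. PLXNA3, which also stayed under the median level, was 2.18-fold lower in the spheres than at day 3. Of the 12 semaphorin and plexin genes, 0 were at least 2-fold higher and 2 lower at day 3 against untreated cells (5.77% and 5.26% of all genes). The counts were 0 and 1 in the spheres against untreated cells (4.90% and 5.00%), and 1 and 1 in the spheres against day 3 (5.78% and 4.72%). Their median log2 differences were 0.36, -0.08 and -0.47, beside -0.01, 0.01 and -0.04 for all genes.

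ANGPT1 and ANGPTL4 shared an order of arrays, high at day 3 and low in the spheres. ANGPT1, the ligand that activates TEK, read 307 in untreated cells, 666 at day 3 and 132 in the spheres. It was 2.17-fold higher at day 3 and 2.33-fold lower in the spheres than in untreated cells, so the treated arrays lay on opposite sides of the untreated one and 5.06-fold apart. This was the 60th lowest of 17185 differences between the spheres and day 3. The 666 at day 3 was just under the median level of 685. With 64 added to every intensity the differences from untreated cells were 0.97 and -0.92 in log2, just short of 2-fold.

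Among the other genes of the angiopoietin group, 1 was past 2-fold in any comparison. ANGPT2, the context-dependent antagonist of ANGPT1, had intensities of 653, 409 and 519, so it was lowest on the array where ANGPT1 was highest. Its ratio between untreated cells and day 3 was under 2-fold, at a log2 difference of -0.68. The receptor TEK stayed between 9.12 and 17.2 and its partner TIE1 between 30.2 and 37.1, all in the lowest quartile of gene values. ANGPTL8, a lipase regulator of the same superfamily as ANGPTL4, was 2.41-fold higher at day 3 than untreated, at 1399 against 581, and ANGPTL2 was highest at day 3 at 436, against 248 untreated and 218 in the spheres. Of the 11 genes in this group, ANGPTL8 was thus the one called, in that comparison alone, where 5.77% of all genes were at least 2-fold higher.

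ANGPTL4, which encodes a secreted inhibitor of lipoprotein lipase and is a known target of PPAR, hypoxia and TGF-beta signalling, read 1177 in untreated cells, 2726 at day 3 and 710 in the spheres. It was 2.32-fold higher at day 3 than in untreated cells. In the spheres it was 1.66-fold below untreated cells and 3.84-fold below day 3, the 123rd lowest of 17185 differences. All 3 values were past the median level, and the 2 calls were kept with 64 added to every intensity. Among 9285 genes past that level, those with the most similar pattern over the 3 arrays, by the distance between log2 values centred on their mean, were NEIL1 (distance 0.07), SALL4 (0.09) and RBPMS2 (0.11). NEIL1 read 445, 1083 and 263, SALL4 342, 780 and 190, and RBPMS2 445, 1025 and 293. With 3 arrays, many genes can share such an order.

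The window of the ANGPTL4 promoter is shown because this gene was past 2-fold in both comparisons that involve day 3, past the median level, and has a known link to the treatment. The RefSeq window (GRCh38.p14, chr19:8363905-8364204, plus strand, 250 bases before to 50 after the gene start) reads 5′ to 3′, with matches on either strand to the same 4 motifs in capitals:
ANGPTL4: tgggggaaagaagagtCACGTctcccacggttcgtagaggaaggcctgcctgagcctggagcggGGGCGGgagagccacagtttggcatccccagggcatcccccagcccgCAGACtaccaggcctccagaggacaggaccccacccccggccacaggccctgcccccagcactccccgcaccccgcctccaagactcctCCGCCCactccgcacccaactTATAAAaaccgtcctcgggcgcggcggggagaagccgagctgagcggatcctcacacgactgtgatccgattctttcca
It held 1 match each to the hypoxia response element core, 234 bases before the gene start, the SMAD box core, 139 bases before it, and the TATA box core, 29 bases before it, and 2 matches to the GC box. None of these matches overlapped another. Of all 35116 windows, 21.4% held the hypoxia response element core, 45.3% the SMAD box core, 45.0% the GC box and 11.5% the TATA box core, so each of these short motifs is common, and a match is a description of the letters only. Windows were matched for 6 of the 10 genes.

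Genes tied to ANGPTL4 through PPAR and lipases differed in both directions. PDK4, a pyruvate dehydrogenase kinase gene and a PPAR target, was 3.35-fold higher at day 3 than untreated and 3.16-fold lower in the spheres than at day 3, at 66.3, 222 and 70.4, the same order of day 3 over the other arrays at a low level. FABP4, a fatty acid carrier and PPARG target, went the other way, with 2284 in untreated cells, 894 at day 3 and 8476 in the spheres, so it was 9.48-fold higher in the spheres than at day 3. PPARG itself was 4.13-fold lower in the spheres than in untreated cells, at 673 against 2782. LPL, the enzyme that ANGPTL4 inhibits, was low on all arrays, between 43.2 and 68.4. Of the 15 genes, 3 were at least 2-fold higher and 2 lower at day 3, 1 and 2 in the spheres against untreated cells, and 1 and 2 in the spheres against day 3. Among all genes these shares were 5.77% and 5.26%, 4.90% and 5.00%, and 5.78% and 4.72%.

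VEGFA and ANGPTL4 both belong to the genes induced by low oxygen, and some other genes of that group were higher in the spheres while these 2 were not. PDK1, a pyruvate dehydrogenase kinase gene, read 1107, 663 and 2675, and DDIT4, an inhibitor of mTOR signalling, read 3242, 5433 and 10018. Of 15 hypoxia genes other than the members, 5 were at least 2-fold higher and 0 lower in the spheres against untreated cells. Among all genes the shares were 4.90% and 5.00%. The median log2 difference of the 15 was 0.46 beside 0.01 for all genes. At day 3 the counts were 2 higher and 1 lower, beside 5.77% and 5.26%, with a median of -0.10 beside -0.01. VEGFA was 1.57-fold and ANGPTL4 1.66-fold lower in the same spheres. PFKFB4, a regulator of glycolysis, had an order of arrays closer to that of ANGPTL4, at 1246, 3616 and 1151. Among 7 genes of the oxygen-sensing machinery, EPAS1, which encodes HIF-2 alpha, was the one past 2-fold. It was called lower in the spheres against untreated cells, beside 5.00% of all genes, and against day 3, beside 4.72%. It read 3928, 4072 and 935, 4.20-fold lower in the spheres than in untreated cells and 4.35-fold lower than at day 3, while HIF1A stayed between 4959 and 6196, its partner ARNT between 1816 and 2779 and the hydroxylase gene HIF1AN between 2616 and 4092.

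PECAM1 differed most of the 10 genes at day 3. This immunoglobulin-like adhesion molecule, also called CD31, read 65.6 in untreated cells, 944 at day 3 and 171 in the spheres. The day 3 array was high and the other arrays low. PECAM1 was 14.4-fold higher at day 3, the 13th highest of 17185 differences, 2.61-fold higher in the spheres than in untreated cells, and 5.51-fold lower in the spheres than at day 3, the 48th lowest. With 64 added to every intensity the log2 difference at day 3 was 2.96 in place of 3.85, still past 2-fold. The difference of the spheres from untreated cells was 0.86 in place of 1.38 under the same setting and so lost its call, since the untreated value lay close to the lower quartile of 63.4. The gene rests on 1 probe set. The genes past the median level with the most similar pattern were OLFML3, which read 419, 4216 and 1149, IGFBP5, which read 243, 3252 and 397, and EGR2, which read 279, 3961 and 1148. Their distances of 0.45, 0.51 and 0.54 were larger than those of the genes nearest ANGPTL4.

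Most markers of endothelial cells stayed under 2-fold at day 3, where PECAM1 was high. Of 16 such genes 15 were measured and 2 reached the median level, EGFL7 and ROBO4. CDH5, the endothelial cadherin, read 110, 126 and 118, VWF, which encodes von Willebrand factor, read 26.2, 30.8 and 17.9, and CLDN5, a tight junction gene of vessels, read 44.3, 65.5 and 49.9. At day 3 against untreated cells 1 of 15 was at least 2-fold higher (MMRN2, at 38.3 against 15.1), beside 5.77% of all genes. Another 1 was lower (ROBO4, a guidance receptor, at 357 against 922), beside 5.26%. Of the 15 genes, 9 were above their untreated value, with a median log2 difference of 0.11 beside -0.01 for all genes. In the spheres 0 were higher and 2 lower than in untreated cells (ESAM and ROBO4), beside 4.90% and 5.00%. The summed intensity of the list was 4523 in untreated cells, 3982 at day 3 and 3740 in the spheres. EGFL7, its brightest gene, read 2087, 2250 and 2152, while ROBO4 read 922, 357 and 424 and ESAM 610, 330 and 148. The falling sum thus rests on few genes and does not describe the list as a whole. On the 3 arrays 7, 6 and 7 of its 15 genes lay in the lowest quartile.

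**Figure D4:**
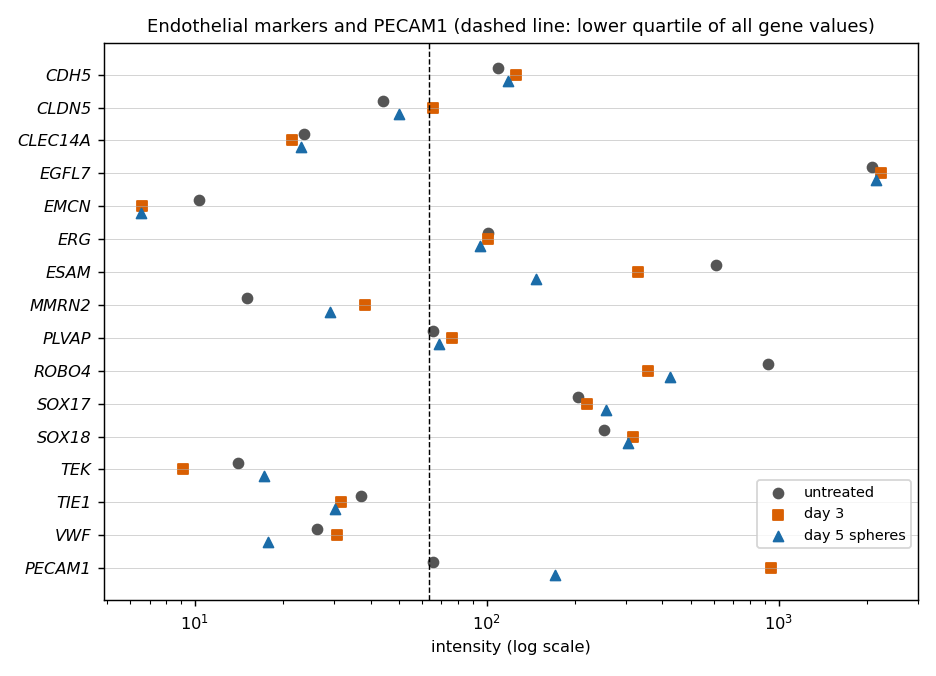
Intensity of 15 endothelial marker genes and of PECAM1 on the 3 arrays, on a log axis, with a dashed line at the lower quartile of all gene values, 63.4. PECAM1 reads 944 at day 3, against 65.6 and 171. CDH5, TIE1 and CLEC14A stay close together on the 3 arrays. ESAM (610, 330 and 148), ROBO4 (922, 357 and 424) and MMRN2 (15.1, 38.3 and 29.0) differ by more than 2-fold between arrays.

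Leukocyte and platelet markers, the other usual sources of PECAM1 RNA, were mostly low. None of the 11 genes reached the median level, and 7, 6 and 7 of them lay in the lowest quartile on the 3 arrays. PTPRC, the pan-leukocyte marker CD45, stayed between 18.5 and 25.9. At day 3, however, 10 of the 11 were above their untreated value. Their median log2 difference was 0.30, beside -0.01 for all genes. At least 2-fold higher was 1 of 11, and 1 was lower, beside 5.77% and 5.26% of all genes. The summed intensity was 1159, 1200 and 948, a sum that includes the fall of CD14 from 509 to 141 at day 3. GP9, a platelet glycoprotein gene, was 2.26-fold higher at day 3 than untreated, at 323 against 143. CD14, a monocyte marker, was 3.62-fold lower, at 141 against 509. CD3E, a T cell gene, was 1.82-fold higher at day 3, at 56.2 against 30.9, both in the lowest quartile. Of the line's own 10 markers, 8 reached the median level, among them VIM between 15058 and 16930, RUNX2 between 3246 and 4818 and CD44 between 4148 and 4822. The bone enzyme gene ALPL was low at 45.8 to 76.4. Of the 10 line markers, 2 were at least 2-fold higher and 0 lower at day 3 and again in the spheres, both against untreated cells, with medians of 0.63 and 0.18. Among all genes the shares were 5.77% and 5.26% at day 3 and 4.90% and 5.00% in the spheres. The 2 higher markers were the type I collagen genes COL1A1, which read 1755, 10781 and 7408, and COL1A2, which read 36.2, 193 and 224. THY1, a surface glycoprotein gene, read 512, 939 and 469.

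Other adhesion molecules of the vessel wall went their own ways. JAM2, a junctional adhesion molecule, was the one of 15 at least 2-fold higher, at 2.14-fold at day 3 and 3.48-fold in the spheres against untreated cells, reading 797, 1708 and 2774. Unlike PECAM1 it was highest in the spheres. ESAM, an endothelial adhesion molecule, was 4.12-fold lower in the spheres than in untreated cells (148 against 610), and ICAM2, a ligand of leukocyte integrins, 2.37-fold lower (196 against 465). Both stayed under the median level. MCAM, which was past that level, was 2.40-fold lower in the spheres (1643 against 3938). VCAM1 and SELE, which inflamed endothelium displays, stayed between 9.81 and 15.2. The counts of genes at least 2-fold higher and lower were 1 and 0 at day 3 against untreated cells, 1 and 3 in the spheres against untreated cells, and 0 and 2 in the spheres against day 3. Among all genes these shares were 5.77% and 5.26%, 4.90% and 5.00%, and 5.78% and 4.72%. Of 6 genes whose products bind PECAM1 or its tail, 0 were higher and 2 lower at day 3 against untreated cells, beside 5.77% and 5.26% of all genes. The lower genes were CD38, at 62.8 untreated and 23.3 at day 3, and CD177, at 82.6 and 20.3. Both lay in the lowest quartile on the treated arrays, so the sizes of their folds are uncertain. In the spheres 0 of the 6 were higher and 3 lower than in untreated cells, beside 4.90% and 5.00%. JUP, which encodes plakoglobin, read 1899, 2164 and 874 and was 2.17-fold lower in the spheres than in untreated cells. PTPN11, the phosphatase recruited by PECAM1, stayed between 5266 and 5366.

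Inhibitors and other genes of vessel growth gave the setting for the VEGF genes. VASH1, which encodes the inhibitor vasohibin 1, was 6.82-fold higher at day 3 and 2.68-fold higher in the spheres than in untreated cells, reading 786, 5361 and 2111, the same order of arrays as PECAM1. SERPINF1, which encodes the inhibitor PEDF, was 2.39-fold higher at day 3, at 16847 against 7062. VASH2, a relative of VASH1 that is known to promote vessel growth, was 2.42-fold higher in the spheres, at 321 against 133. THBS1, the gene of thrombospondin 1, stayed between 5733 and 5900. Of the 11 genes listed as inhibitors, VASH2 included, 2 were called higher and 0 lower at day 3, and 2 and 0 in the spheres, both against untreated cells, with medians of 0.34 and 0.03. Among all genes the shares were 5.77% and 5.26% at day 3 and 4.90% and 5.00% in the spheres. A further list held 16 other genes of vessel growth, not all of them promoters of it. Of these, 2 were higher and 6 lower at day 3 against untreated cells, beside 5.77% and 5.26% of all genes. Their median was -0.48, beside -0.01. In the spheres 2 were higher and 5 lower, with a median of -0.21, beside 4.90% and 5.00% of all genes and a median of 0.01. DLL4, a Notch ligand of sprouting vessels, was 4.81-fold lower at day 3 and 6.08-fold lower in the spheres, at 39.7 and 31.4 against 191, and APLN, which encodes the peptide apelin, 5.53-fold and 4.33-fold lower, at 34.3 and 43.8 against 189. Both lay in the lowest quartile on the treated arrays, so the sizes of their folds are uncertain. EDIL3, an integrin-binding matrix protein gene, was 10.1-fold lower at day 3, at 149 against 1507, and read 493 in the spheres.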

How the data were processed

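Each of 3 cultures gave 1 Cy3 single-colour array of total RNA, per the labels. The values deposited by the authors are 1 intensity for each probe set on each array. The submitters' processing notes name RMA, with no version in the sources used here. RMA corrects background and makes the arrays' distributions alike, which would hide a difference shared by most genes. The deposited intensities were linear, from 2.37 to 51530, with medians of 455, 437 and 445. The log2 of each intensity was taken with no offset (Python 3.11.15, pandas 2.3.3, NumPy 2.4.6). Of 45033 probe sets, 18188 were named by the platform's gene table, updated to current symbols, and 678 more by RefSeq transcript accession; 26167 stayed unnamed here. They gave 17185 genes, of which 9285 reached the median level.

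Differences were read with a 2-fold rule and no test. A run on simulated arrays checked only that the code called large set folds and not small ones. Its noise was chosen in advance, so it does not measure the error of these arrays. The 10 members and the 13 related gene lists (139 genes, 138 measured) were chosen with earlier results of these data known. From each list, and from 10 markers of the line, up to 3 genes with the largest difference were named by rule. ANGPT2, TIE1, LPL, HIF1A, VCAM1, SELE, MCAM, CDH5, VWF, CLDN5, CLEC14A, EGFL7, PTPRC, PTPN11, THBS1, VIM, RUNX2, CD44 and ALPL were added after their values were seen. Alternatives were the brightest or median probe set, median centring, quantile normalization, 16 or 64 added to each intensity, 1.5-fold and 3-fold thresholds, and level filters at the median and upper quartile.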

Additional observations from a re-analysis of the deposited data

How the results depend on the processing

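Direction held for every member past 2-fold under each of the 10 alternatives listed with the processing that gave it a value, while the size of the low genes' differences, and so their calls, depended on the offset and the threshold. No paired analysis was possible because each group was 1 array. Genes at least 2-fold higher and lower among all named genes were 991 and 904 at day 3 against untreated cells, 842 and 860 in the spheres against untreated cells, and 994 and 811 in the spheres against day 3. In the same order they were 2623, 2352, 2122, 2301, 2244 and 2264 at 1.5-fold, 287, 274, 303, 301, 312 and 236 at 3-fold, 518, 435, 478, 529, 556 and 527 with 64 added, 427, 319, 370, 409, 424 and 475 past the median level, and 127, 57, 102, 97, 70 and 124 past the upper quartile level.

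Among the 10 members, the 1.5-fold threshold gave 5 higher and 2 lower at day 3 against untreated cells, and 5 lower in the spheres against untreated cells. At 3-fold there was 1 higher at day 3, and in the spheres against untreated cells 0 were higher and 1 was lower. With 64 added, 0 were lower in both comparisons with untreated cells and 0 higher in the spheres. Past the median level 0 members were lower in either comparison with untreated cells, and 2 were lower in the spheres against day 3. Past the upper quartile level all of these counts were 0, since that filter keeps only VEGFA, VEGFB, VEGFC and NRP1. The median of probe set levels gave NRP2 values of 1.65 at day 3 and -1.04 in the spheres against day 3, which set different probe sets against each other; the median of the probe sets' own differences, chosen after seeing the data, gave 0.52 and -0.40 and changed none of the members' counts. Below 2-fold, the brightest probe set turned NRP1 to -0.21 in the spheres against untreated cells and to -0.12 against day 3, and NRP2 to 0.45 in the spheres against day 3. Neither median centring nor quantile normalization turned any member. With no replicate arrays and no background values, the precision of single values, above all of KDR and FLT1, is unknown.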
